A study of Homo sapiens with 6 samples.

Results

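KCTD20 was followed here together with its paralog BTBD10 and the next protein-coding genes after it on chromosome 6, STK38 and SRSF3. These 4 genes were found by their Ensembl IDs among the 38900 gene rows of the deposited table, and all 4 had enough reads to be tested, as did 13928 genes in all. KCTD20 was picked because it rose about 4-fold with 1 of the smallest p-values of the data set, so its own difference is given below as a description, without a p-value. BTBD10, STK38 and SRSF3 were added for their sequence or position. The data are RNA sequencing of polyA RNA from hTERT RPE1, an established human retinal pigment epithelial line immortalised with telomerase. Before treatment the cultures had stood at full density for 5 days, which takes the cells out of the division cycle. One group of 3 libraries received 0.1% DMSO, the solvent, and the other group of 3 received 100 nM combretastatin A4 (CA4), a drug that binds tubulin and depolymerises microtubules, both in fresh medium for 6 hours. The labels number the libraries of each group 1 to 3 without saying whether they came from separate cultures, so p-values measure the spread between these libraries only.

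KCTD20 belongs to the proteins with a BTB domain, a fold through which proteins pair with themselves or with the ubiquitin ligase scaffold CUL3. The name KCTD comes from the likeness of this domain to the tetramerisation domain of potassium channels. BTBD10 is known to bind the kinase AKT and to protect it from the phosphatase PP2A, and KCTD20 has been described as a positive regulator of AKT as well. STK38, also called NDR1, is a protein kinase related to the LATS kinases of the Hippo pathway and works with MOB proteins. SRSF3 is the smallest of the SR proteins, which bind exons and act in splicing and in mRNA export, and it is known to control the splicing of its own transcript.

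In GENCODE 29, on build GRCh38, KCTD20 (ENSG00000112078) spans chr6:36442767-36491143 on the plus strand. STK38 (ENSG00000112079) lies at chr6:36493892-36547470 on the minus strand, so that the ends of both genes face each other across 2748 bases. SRSF3 (ENSG00000112081) follows at chr6:36594353-36605600 on the plus strand, 46.9 kb beyond STK38. BTBD10 (ENSG00000148925) is on another chromosome, at chr11:13388001-13463297 on the minus strand. KCTD20 has 10 annotated transcripts, 6 of them coding, and SRSF3 has 8, of which 2 are coding. The deposited values are per gene, so that coding and non-coding forms cannot be told apart.

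The paralogs are related but far from identical. Over 1242 aligned bases, the longest coding sequences of KCTD20 (1260 bases) and BTBD10 (1452 bases) were 70.3% identical. The stretch of 60 bases in which they are most alike is shown to make clear how often they differ even there. It covers bases 433 to 492 of the KCTD20 and 607 to 666 of the BTBD10 coding sequence, with the 11 differing bases in capitals:
KCTD20: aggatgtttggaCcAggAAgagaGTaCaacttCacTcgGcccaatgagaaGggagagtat
BTBD10: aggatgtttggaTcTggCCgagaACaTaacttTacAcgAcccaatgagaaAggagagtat
The longest run of identical bases in the whole alignment was 15, and no word of 50 bases was shared between any of their transcripts. Of the 6509 such words of KCTD20, 0.68% occurred in transcripts of other genes. STK38 shared none. BTBD10 shared 4.33% of its words with 1 pseudogene, BTBD10P1, which had between 0 and 0.967 normalized counts in the 6 libraries. KCTD20 shares 123 exon bases, 1.97% of its own, with PXT1 on the opposite strand, and PXT1 had at most 2.23 normalized counts in any library.

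A normalized count is the number of reads of a gene divided by a scaling factor of the library, and 1 read was worth between 0.935 and 1.12 normalized counts. In DMSO replicates 1, 2 and 3 the level of KCTD20 was 2833, 2430 and 2251 normalized counts. In CA4 replicates 1, 2 and 3 it was 10147, 11421 and 10363. All 3 CA4 libraries stood far above all 3 DMSO libraries, and within each group the values differed by much less than the gap between the groups. The group means were 2505 ± 298 and 10644 ± 682 (SD, n = 3 each). The log2 difference, or log2 fold change, CA4 minus DMSO on the log2(normalized count + 1) scale, was 2.09 (SE 0.10), or 4.26-fold. By mean level KCTD20 was number 1448 of the tested genes in DMSO and number 267 in CA4. In the order of p-values it stood at place 3, after TUBB3 and FOXC1. The gene at the next place was DUSP1, a phosphatase of MAP kinases that rose 2.83-fold. Over all 16 other settings of the analysis the log2 difference of KCTD20 stayed between 1.99 and 2.18. In bulk RNA a higher level per cell, more cells that express the gene and a slower decay of the transcript cannot be told apart.

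BTBD10 did not follow its paralog. It had 848, 632 and 692 normalized counts in the DMSO libraries and 809, 675 and 664 in the CA4 libraries. Both groups overlapped, with replicate 1 highest in each. The means were 724 ± 111 and 716 ± 80.5 (SD, n = 3 each), a log2 difference of -0.01 (SE 0.14, adjusted p = 0.977 by limma). The 95% interval of the change ran from 0.791-fold to 1.25-fold, so a rise such as that of KCTD20 lay outside it. Relative to BTBD10 in the same library, the log2 ratio of KCTD20 was 1.74, 1.94 and 1.70 in DMSO and 3.65, 4.08 and 3.96 in CA4, a difference of 2.10 between the group means. This difference contains the rise for which KCTD20 was picked and is not tested.

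**Figure D1:**
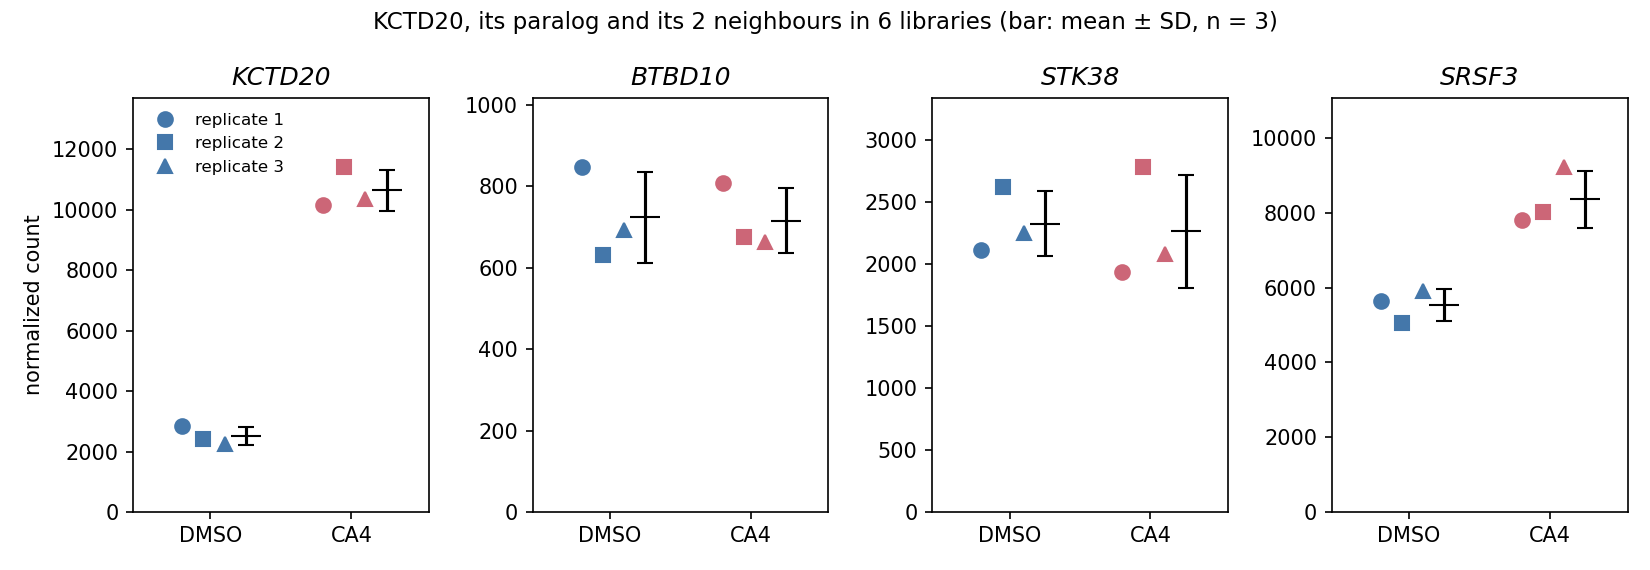
Normalized counts (vertical axes, each from 0) of KCTD20, BTBD10, STK38 and SRSF3 in the 3 DMSO (blue) and 3 CA4 (red) libraries, with a circle, square and triangle for replicates 1, 2 and 3 and the group mean ± SD as the black bar. KCTD20 rises from 2505 to 10644 and SRSF3 from 5533 to 8356 without overlap, while the groups of BTBD10 and STK38 overlap.

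STK38, the gene next to KCTD20, showed no difference beyond the spread of its libraries. The DMSO libraries held 2107, 2614 and 2246 normalized counts of it and the CA4 libraries 1930, 2779 and 2075. Replicate 2 was the highest library in both groups, and the CA4 values spread on both sides of the DMSO values. The means were 2322 ± 262 and 2262 ± 454 (SD, n = 3 each), a log2 difference of -0.05 (SE 0.15, adjusted p = 0.88 by limma) with a 95% interval from 0.756-fold to 1.23-fold.

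SRSF3 rose. It had 5643, 5058 and 5899 normalized counts in DMSO and 7811, 8033 and 9223 in CA4, and the lowest CA4 library lay above the highest DMSO library. The means were 5533 ± 431 and 8356 ± 759 (SD, n = 3 each), a log2 difference of 0.59 (SE 0.10, adjusted p = 0.0199 by limma), or 1.51-fold with a 95% interval from 1.29-fold to 1.76-fold. Of the tested genes, 4.94% passed this threshold in either direction (an adjusted p under 0.05), 2.97% as higher and 1.97% as lower in CA4. The shares were 4.62% with edgeR's quasi-likelihood test and 12.3% with DESeq2, both on reads recovered from the table, and 23% at an unadjusted limma p under 0.05. When all libraries were set to the same total, 34.79% of the genes past the threshold were higher, against 60.03% with the authors' scaling, and the median log2 difference of all tested genes moved by -0.10. SRSF3 kept its call under that scaling. The limma adjusted p missed the threshold of 0.05 at 0.0774 without DMSO replicate 2, at 0.0704 without DMSO replicate 3, at 0.0528 without CA4 replicate 1, at 0.0715 without CA4 replicate 3 and at 0.0739 without the mean trend. Relative to STK38 in the same library, the log2 ratio of SRSF3 was 1.42, 0.95 and 1.39 in DMSO and 2.02, 1.53 and 2.15 in CA4. These ratios did not overlap between the groups and differed by 0.64, with a two-sided exact permutation p of 0.1, the smallest that 3 libraries against 3 can give. The adjusted p was 0.1 over the 2 ratios tested in this way.

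Per kilobase of annotated exon, KCTD20 changed its place among the 4 genes between the groups, and the others kept their order. This move contains the rise for which KCTD20 was picked and is not tested. In DMSO the order of normalized counts per kb was SRSF3 at 777 ± 60.6, STK38 at 649 ± 73.2, KCTD20 at 401 ± 47.7 and BTBD10 at 207 ± 31.9 (SD, n = 3 each). The libraries of SRSF3, from 711 to 829, overlapped with those of STK38, from 589 to 731, and the other steps of this order showed no overlap. In CA4 KCTD20 came first at 1706 ± 109 normalized counts per kb, before SRSF3 at 1174 ± 107, STK38 at 632 ± 127 and BTBD10 at 205 ± 23 (SD, n = 3 each). There the libraries of no 2 genes overlapped. The lengths are those of all exons merged, which counts exons that these cells may not use.

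The stretch around KCTD20 was read for every protein-coding gene within 500 kb. Of 17 such genes other than KCTD20, 11 were tested, STK38 and SRSF3 among them. Here 3 of the 11 passed the threshold, against 2.97% of all tested genes that passed it as higher, and 0 passed it as lower in limma, edgeR or DESeq2, or at an unadjusted limma p under 0.05. They were ETV7, SRSF3 and CDKN1A. ETV7 reached the minimum mean of 10 normalized counts for testing only through its CA4 libraries, so it could enter the tested genes only as higher. DESeq2 also called 3 of 10, with BRPF3 (adjusted p = 0.0214) and without a value for ETV7, where it called 6.92% of all genes as higher. The groups did not overlap in 6 of the 11, against 27.7% of all tested genes. The median log2 difference of the 11 was 0.11, and that of all tested genes was -0.01. Because the limma counts and this median include ETV7, they are no support for a pattern along the chromosome. The DESeq2 count has no value for ETV7, and such a pattern was not tested. The non-coding genes of this stretch were not analysed here.

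CDKN1A encodes p21, an inhibitor of cyclin-dependent kinases, and starts 70.9 kb beyond the end of SRSF3. It had 4763, 4712 and 4346 normalized counts in DMSO and 9904, 9794 and 10928 in CA4, and every CA4 library held more than any DMSO library. Its log2 difference of 1.15 (SE 0.08, adjusted p = 0.00154 by limma) was called in each of the 6 fits without 1 library and in the other 10 settings. The non-coding gene DINOL on the opposite strand covers 146 exon bases of CDKN1A. ETV7, a transcription factor of the ETS family 55 kb on the other side of KCTD20, was read at a low level only. It had 1.93, 3.74 and 3.8 normalized counts in DMSO and 16.4, 29.2 and 29 in CA4, a log2 difference of 2.63 (SE 0.51, adjusted p = 0.0332 by limma). The DMSO values amount to a few reads each, so the size of this difference is poorly fixed, and the gene was tested only because its CA4 values are high. The call of ETV7 held without DMSO replicate 1 and was lost without any of the other 5 libraries, with limma adjusted p-values from 0.0767 to 0.131.

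The other 7 tested neighbours apart from STK38 lay within small changes or wide errors. BRPF3, a scaffold of histone acetyltransferase complexes, had 1292, 1142 and 1249 normalized counts in DMSO and 1684, 1415 and 1774 in CA4. Its groups did not overlap, but the log2 difference of 0.40 (SE 0.11) fell short of the threshold at a limma adjusted p of 0.0817. MTCH1, a mitochondrial outer membrane protein, had a log2 difference of 0.11 (adjusted p = 0.362 by limma), and C6orf89 one of -0.16 (adjusted p = 0.281 by limma). MAPK14, the stress-activated kinase p38 alpha, stood at 0.11 and its relative MAPK13 at 0.10 on the log2 scale. PPIL1, a cyclophilin of the spliceosome, stood at 0.04 and CPNE5, with at most 57 normalized counts in any library, at -0.64. At equal library totals, MAPK13 turned to -0.0048 and PPIL1 to -0.06. STK38, with a change near 0, lies between KCTD20 and SRSF3, which were both higher in every CA4 library.

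**Figure D2:**
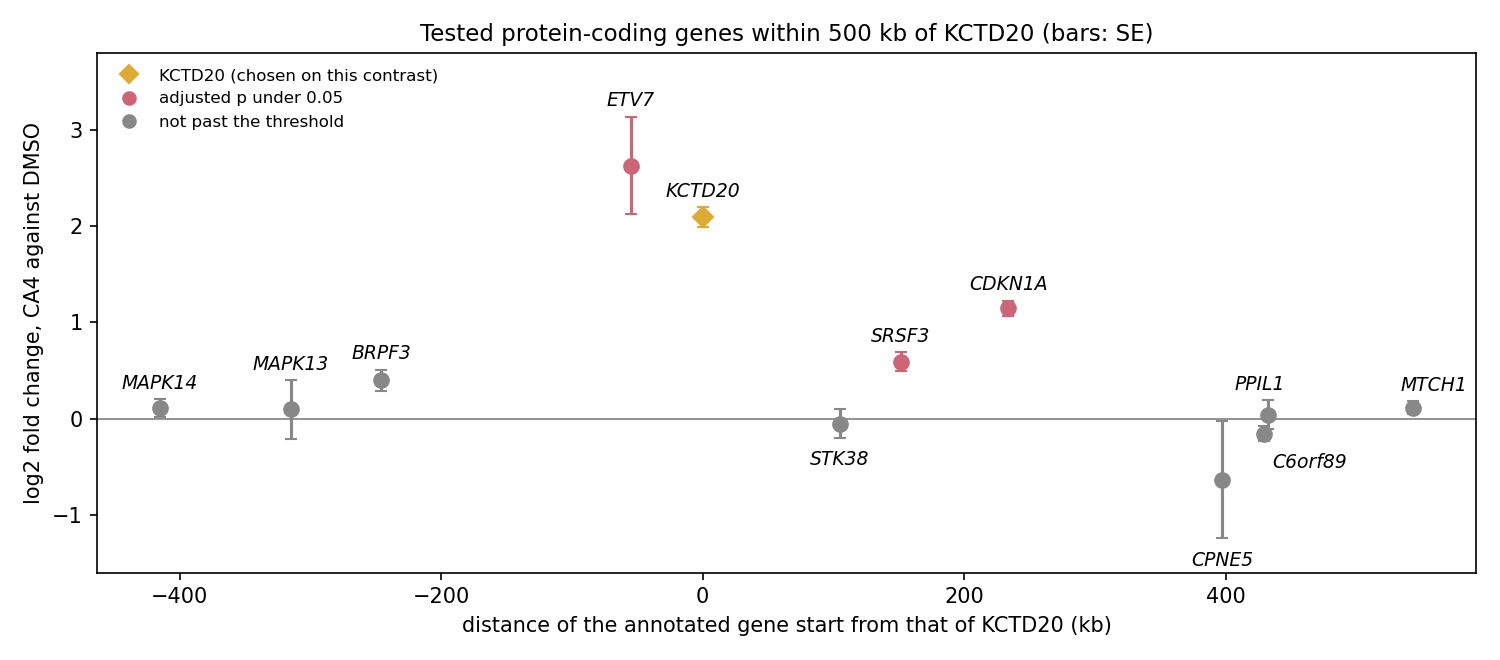
Log2 difference of CA4 against DMSO (vertical axis, bars are standard errors) of the 12 tested protein-coding genes within 500 kb of KCTD20, itself included, by the distance in kb between their annotated start and that of KCTD20. ETV7, SRSF3 and CDKN1A (red) passed the threshold, STK38 and 7 other genes (grey) did not, and KCTD20 (yellow diamond) was chosen on this contrast.

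Around BTBD10 4 of 6 protein-coding neighbours within 500 kb were tested, and 0 passed the threshold in limma and in edgeR, where 4.94% and 4.62% of all tested genes did. At an unadjusted limma p under 0.05, and in DESeq2, 1 passed, TEAD1, against 23% and 12.3% of all tested genes. BMAL1, a transcription factor of the circadian clock, has its end 0.7 kb from that of BTBD10 and had a log2 difference of -0.49 (SE 0.26, adjusted p = 0.31 by limma). TEAD1, the DNA-binding partner of YAP and TAZ, had 4944, 4190 and 5313 normalized counts in DMSO and 6139, 6108 and 6605 in CA4. Its groups did not overlap, and its log2 difference was 0.39 (SE 0.10, adjusted p = 0.0711 by limma). FAR1, an enzyme that makes fatty alcohols, stood at -0.04 and SPON1 at -0.44 on the log2 scale, the latter with at most 23.2 normalized counts in any library.

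STK38 has a close paralog of its own, STK38L (NDR2), at chr12:27243968-27325959 on the plus strand, and of this pair STK38L alone passed the threshold. Their coding sequences of 1398 and 1395 bases were 76% identical, with a longest identical run of 23 bases. The 60 bases in which they are most alike are shown as for the other pair, from base 1193 of the STK38 and base 1196 of the STK38L coding sequence, with the 7 differing bases in capitals:
STK38: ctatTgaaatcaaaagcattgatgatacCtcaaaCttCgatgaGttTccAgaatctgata
STK38L: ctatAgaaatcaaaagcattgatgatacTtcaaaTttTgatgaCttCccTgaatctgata
STK38L had 2208, 2093 and 3004 normalized counts in DMSO and 4461, 6050 and 7076 in CA4, with replicate 3 highest in both groups and no overlap between the groups. Its log2 difference was 1.26 (SE 0.20, adjusted p = 0.0178 by limma), or 2.4-fold. The call was lost without DMSO replicate 2 (adjusted p = 0.076 by limma), without CA4 replicate 3 (adjusted p = 0.0627 by limma) and without the mean trend in limma (adjusted p = 0.0662). Relative to STK38 in the same library, the log2 ratio of STK38L was 0.07, -0.32 and 0.42 in DMSO and 1.21, 1.12 and 1.77 in CA4. Both sets of ratios differed by 1.31 without overlap, with a two-sided exact permutation p of 0.1, the smallest possible here, and an adjusted p of 0.1 over the 2 ratios. Per kb of exon STK38L averaged 352 ± 71.6 normalized counts in DMSO against 847 ± 190 in CA4 (SD, n = 3 each). All 3 DMSO libraries of STK38L lay below those of STK38, and in CA4 both genes overlapped.

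**Figure D3:**
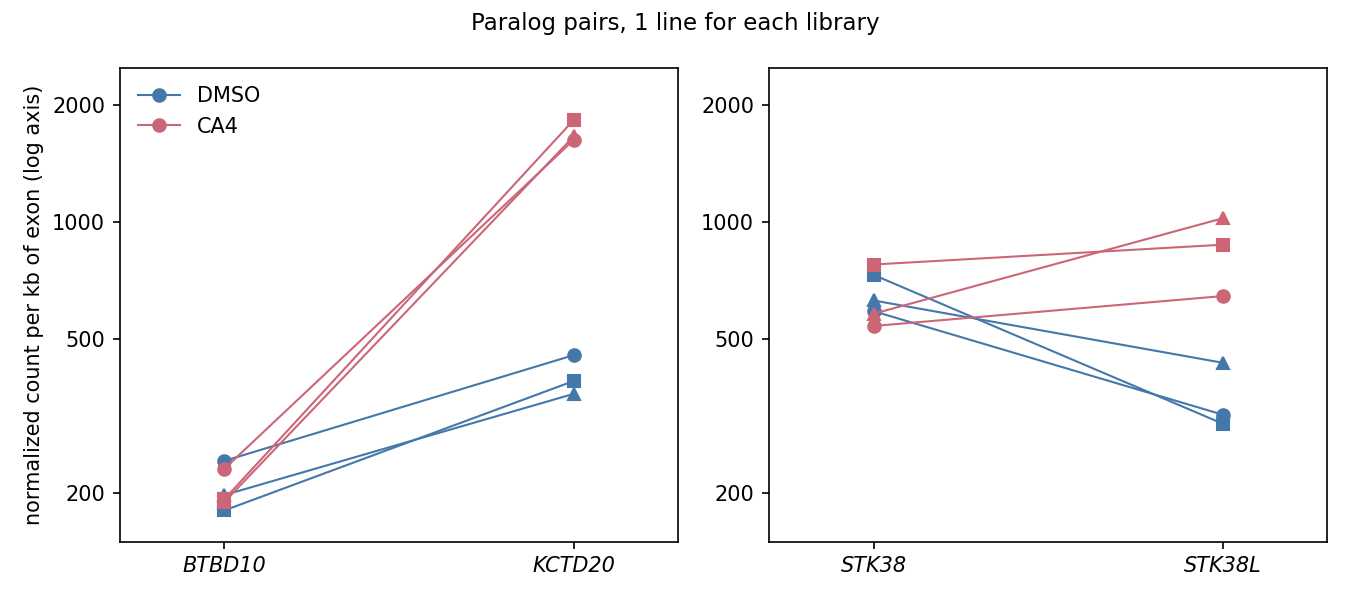
Normalized counts per kb of exon (log axis) of the paralogs BTBD10 and KCTD20 and of STK38 and STK38L, with 1 line for each library in blue for DMSO and red for CA4 and a circle, square and triangle for replicates 1, 2 and 3. BTBD10 and STK38 lie in the same range in both groups, while KCTD20 and STK38L are higher in all 3 CA4 libraries than in any DMSO library.

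The other genes of the KCTD family and CUL3 formed a list of 25 with KCTD20, and 20 were tested besides it. Of these 20 genes, 4 passed the threshold as higher, against 2.97% of all tested genes, and 0 as lower. At an unadjusted limma p under 0.05, 5 were higher and 3 lower, against 11.9% and 11% of all tested genes, and edgeR and DESeq2 called 4 higher and 0 lower, where they called 2.8% and 6.92% of all tested genes as higher. The median log2 difference was -0.07, close to that of all tested genes. KCTD10 and TNFAIP1 are CUL3 adaptors known for their action on the small GTPase RhoA. KCTD10 rose, averaging 2914 ± 241 normalized counts in DMSO against 4460 ± 229 in CA4 (SD, n = 3 each), or a log2 difference of 0.62 (SE 0.09, adjusted p = 0.0156 by limma). TNFAIP1 rose, averaging 2716 ± 45 normalized counts in DMSO against 3918 ± 439 in CA4 (SD, n = 3 each), or a log2 difference of 0.52 (SE 0.09, adjusted p = 0.0265 by limma). Their close relative KCTD13, named after its values were seen, had 346, 258 and 326 normalized counts in DMSO and 547, 364 and 472 in CA4, and its log2 difference of 0.56 (SE 0.19) fell short of the threshold at a limma adjusted p of 0.127. KCTD5, an adaptor of CUL3 for G protein beta gamma subunits, rose by 0.62 on the log2 scale (SE 0.11, adjusted p = 0.0237 by limma). KCTD11, a regulator of Hedgehog signalling also named after its values were seen, rose by 0.47 (SE 0.10, adjusted p = 0.0421 by limma).

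These smaller rises depended on single libraries and settings. Without the mean trend in limma, all 4 lost their calls, at adjusted p-values of 0.0636 for KCTD10, 0.0716 for KCTD5, 0.0838 for TNFAIP1 and 0.0957 for KCTD11. KCTD11 was called in 8 of 16 other settings, and missed the threshold also at equal library totals (limma adjusted p = 0.0728), after quantile normalization (0.0543) and without the filter on low values (0.0503). KCTD10 lost its call without DMSO replicate 2, CA4 replicate 1 or CA4 replicate 3 (limma adjusted p from 0.0508 to 0.0627). KCTD5 and KCTD11 lost theirs without DMSO replicate 2, DMSO replicate 3, CA4 replicate 1 or CA4 replicate 3, with limma adjusted p-values from 0.0839 to 0.0926 for KCTD5 and from 0.13 to 0.15 for KCTD11. TNFAIP1 kept its call only without DMSO replicate 1, and the other 5 fits gave it limma adjusted p-values from 0.0514 to 0.103. CUL3 had 1697, 1687 and 1661 normalized counts in DMSO and 1471, 1470 and 1499 in CA4. Its 3 CA4 libraries all lay below the 3 DMSO libraries, and its log2 difference of -0.18 (SE 0.07, adjusted p = 0.186 by limma) was not past the threshold. Of 13 genes named BTBD, 12 were matched to the table and 9 tested, BTBD10 among them. Of these 9, 0 passed in limma and in edgeR, 1 in DESeq2 and 3 at an unadjusted limma p under 0.05, against 4.94%, 4.62%, 12.3% and 23% of all tested genes. The smallest limma adjusted p was that of BTBD7, 0.0887, at a log2 difference of -0.34.

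Among the AKT kinases and the enzymes that switch them on and off, 29 of 29 genes were tested. Here 3 passed the threshold, all lower, against 1.97% of all tested genes, and the median log2 difference was -0.04. At an unadjusted limma p under 0.05, 3 were higher and 6 lower, against 11.9% and 11% of all tested genes, and DESeq2 called 1 higher and 4 lower and edgeR 0 higher and 3 lower. Over all tested genes DESeq2 called 6.92% higher and 5.39% lower, and edgeR 2.8% and 1.82%. The kinase genes AKT1 and AKT2 did not pass. AKT1 had 3548, 3791 and 3554 normalized counts in DMSO and 3646, 3549 and 3393 in CA4, with a log2 difference of -0.04 (adjusted p = 0.787 by limma). AKT2 stood at 0.08 (adjusted p = 0.665 by limma), and at -0.02 at equal library totals. PHLPP1, a phosphatase that removes the activating phosphate from the tail of AKT, fell from 504, 515 and 530 normalized counts in DMSO to 181, 224 and 182 in CA4. Every CA4 library of PHLPP1 held less than any DMSO library, and its log2 difference of -1.40 (SE 0.13, adjusted p = 0.00403 by limma) was called in all 16 other settings. PIK3R3, a regulatory subunit of PI3-kinase, averaged 1110 ± 325 normalized counts in DMSO against 361 ± 168 in CA4 (SD, n = 3 each), or a log2 difference of -1.67 (SE 0.35, adjusted p = 0.041 by limma). PPP2R5D, a regulatory subunit of PP2A, averaged 1268 ± 179 normalized counts in DMSO against 821 ± 92.2 in CA4 (SD, n = 3 each), or a log2 difference of -0.62 (SE 0.13, adjusted p = 0.0434 by limma). PIK3R3 lost its call without DMSO replicate 2, DMSO replicate 3, CA4 replicate 1 or CA4 replicate 3 (limma adjusted p from 0.11 to 0.15), and PPP2R5D without any library but DMSO replicate 1 (from 0.0537 to 0.133). Both also lost their calls without the mean trend in limma, at adjusted p-values of 0.0966 for PIK3R3 and 0.0965 for PPP2R5D. RNA levels say nothing of the phosphorylation of AKT, which was not measured.

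The NDR kinases with their MOB and FRY partners and the kinases above them numbered 14, all tested. STK38L was the 1 gene past the threshold, near the 4.94% of all tested genes, and the median log2 difference was 0.05. After it the smallest adjusted p-values were those of FRYL, a scaffold of these kinases, at a log2 difference of -0.42 (adjusted p = 0.129 by limma) and of LATS2 at 0.27 (adjusted p = 0.187 by limma). Of 19 tested SR proteins and SR protein kinases, SRSF3 was the 1 gene past the threshold, a share near the 4.94% of all tested genes. The median log2 difference was 0.07, and DESeq2 called 3 of the 19, where it called 12.3% of all genes with a value. SRSF7, a close relative of SRSF3, had 1592, 1348 and 1377 normalized counts in DMSO and 1902, 1757 and 1930 in CA4. Its groups did not overlap, and its log2 difference of 0.38 (SE 0.10) had a limma adjusted p of 0.0666. TRA2B, a related splicing regulator, stood at 0.33 (SE 0.10, adjusted p = 0.0973 by limma), also without overlap.

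**Figure D4:**
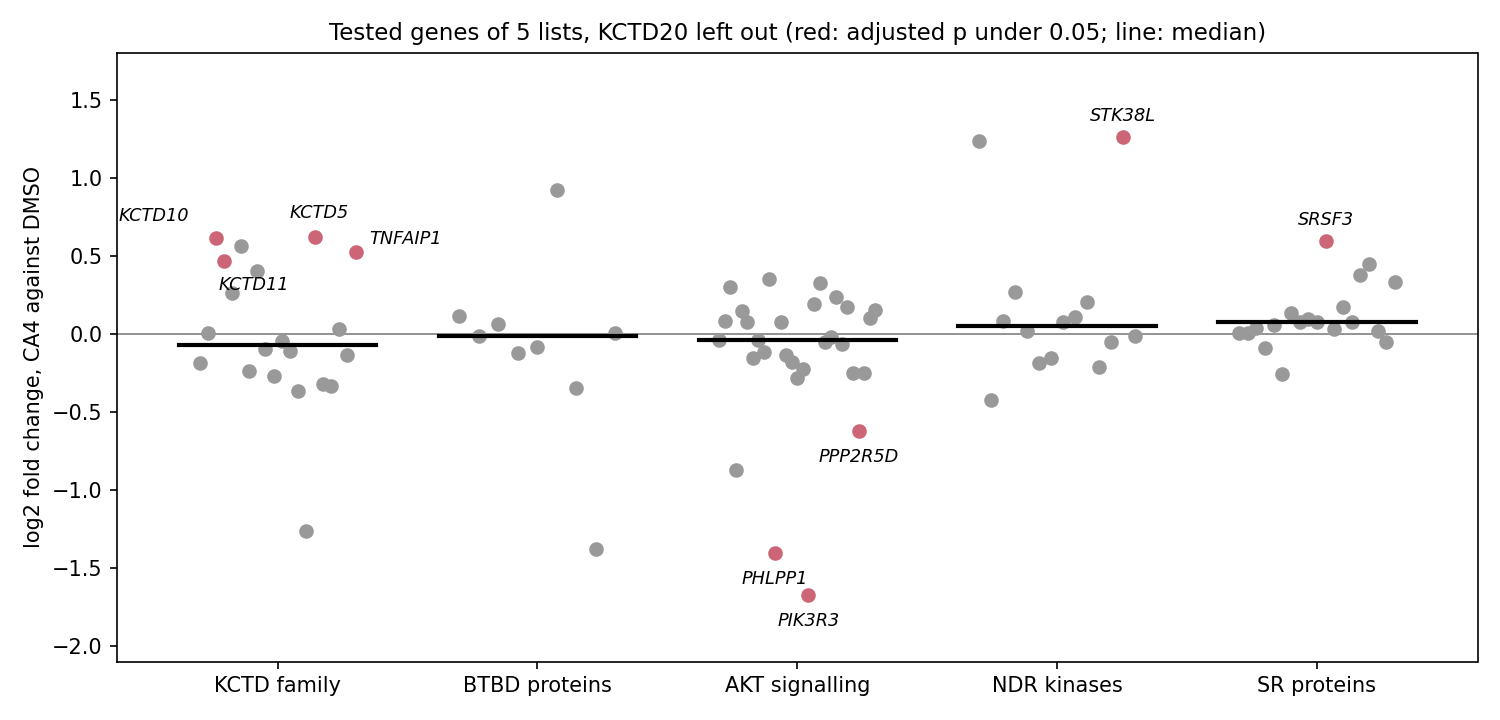
Log2 difference of CA4 against DMSO (vertical axis) of every tested gene in the 5 lists, KCTD20 left out, with genes past an adjusted p of 0.05 in red and named and the list median as a black line. The medians lie between -0.07 and 0.07, and several unnamed grey genes lie as far from 0 as the named ones, without passing the threshold.

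The promoter windows of RefSeq on GRCh38.p14, from 250 bases before to 50 bases after a gene's start, were searched for 5 binding motifs. They were TGANTCA for AP-1, TGACGTCA for CREB, GGAATG for TEAD factors, the CArG box of SRF and the NF-kB site, read on both strands. No match of TGANTCA is also a match of TGACGTCA. Windows were at hand for KCTD20, SRSF3, CDKN1A and STK38L (1 each) and for BTBD10 (2). The window of KCTD20, chr6:36442750-36443049, held 1 AP-1 motif, 39 bases before the RefSeq start, and none of the other 4. The annotated span of KCTD20 in GENCODE 29 begins at chr6:36442767, before this motif, so the motif lies inside that span. BTBD10 held an AP-1 motif in the window of its inner start, chr11:13440206-13440505, and STK38L a CREB motif in its window, chr12:27244036-27244335. SRSF3 and CDKN1A held none of the 5. The matches are printed with their surroundings on the strand of the gene, at chr6:36442950-36442979, chr11:13440214-13440243 and chr12:27244105-27244134, with the motif in capitals:
KCTD20: gaagcgctgggTGACTCAgccgcgtggccg
BTBD10: caacccacggcTGAGTCAgtgtctgtgaga
STK38L: tgtggtgcgtaTGACGTCAgggcgagtcgg
Of all 35116 promoter windows, 7.71% held the AP-1 motif, 1.85% the CREB motif, 14.03% the TEAD motif, 1.29% the CArG box and 5.91% the NF-kB site. A match is a description of the letters and shows no binding.

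Comparison with 11688 other genes, each averaging 50 normalized counts or more, gave the closest companions of KCTD20. Those whose log2 values followed KCTD20 most closely over the 6 libraries included ACTG1, ACTN4, KRT80 and DDX31, with Pearson's r between 0.994 and 0.998. ACTG1 encodes a cytoplasmic actin and ACTN4 an actin-crosslinking protein. Both rose much less than KCTD20, by 0.43 and 0.48 on the log2 scale. These r values mostly restate the difference between the 2 groups, for which KCTD20 was chosen. CDKN1A had an r of 0.992, SRSF3 of 0.939, STK38L of 0.913, BTBD10 of 0.01 and STK38 of -0.11.

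The libraries held from 19524936 to 22538004 reads each. The line was checked against markers of retinal pigment epithelium. OTX2 fell from 533 ± 104 to 244 ± 15.5 normalized counts (SD, n = 3 each, adjusted p = 0.0158 by limma), a call that was lost in 4 of the 6 fits without 1 library (up to 0.0816). RPE65 had between 13.5 and 40.8 normalized counts, and DCT, RGR and TTR had no read in any library, which leaves room for up to 3 reads in each. Of 14 such markers 7 were tested, and OTX2 was the 1 past the threshold in limma, against 4.94% of all tested genes. DESeq2 called 2 of 5 lower, against 5.39% of all genes. MITF averaged 885 ± 240 normalized counts in DMSO against 457 ± 170 in CA4 (SD, n = 3 each), with overlapping groups and an adjusted p of 0.1 by limma. Their summed level ran from 1313 to 2006 normalized counts in DMSO and from 818 to 1211 in CA4. Of 6 markers of the line and of epithelial or mesenchymal cells, KRT8, KRT18, VIM and CDH2 were abundant in both groups, and CDH1 was not tested for its low level. TERT, the gene that immortalised the line, averaged 57.6 ± 15.4 normalized counts in DMSO against 166 ± 39.1 in CA4 (SD, n = 3 each, adjusted p = 0.0272 by limma) and CDH2 a log2 difference of 0.31 (adjusted p = 0.0452 by limma), and both calls were lost in 4 or 5 of the 6 fits without 1 library. The summed level of 10 markers of other cell types ran from 1849 to 2333 normalized counts in DMSO and from 2169 to 4002 in CA4, highest in CA4 replicate 3. SRSF3, CDKN1A, STK38L, KCTD10, KCTD11 and TNFAIP1 were also highest in that library, KCTD20, ETV7 and KCTD5 were not, and the part of these markers in the results was not tested.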

How the data were processed

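RNA of 6 libraries (3 DMSO, 3 CA4) was sequenced after polyA selection, per the labels. The deposited values are a normalized signal, read counts per gene divided by a factor per library. The submitters' processing notes name Trim Galore 0.6.6, FastQC 0.12.1, Salmon 1.8.0, STAR 2.7.9a, DESeq2 1.44.0 and GRCh38. Which tool made the table, and whether counting used strand, is not given in the sources used here. Every value was a whole multiple of 1 read within 0.01 (100%), which gave back 19524936 to 22538004 reads per library. Of 38900 gene rows, 17103 were at 0 throughout.

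Genes with a mean of at least 10 (13928) were tested with limma 3.58.1 (mean trend, R 4.3.3) on log2(normalized count + 1), with Benjamini-Hochberg adjustment over all of them and a threshold of 0.05. Fold changes on this scale understate changes of low genes. Alternatives were other pseudocounts, filters and scalings, no mean trend, a replicate block, each library left out, and edgeR 4.0.16 and DESeq2 1.42.0 on the recovered reads. The model fits were tested on simulated data. Positions, exons and coding sequences are from GENCODE 29, and the promoter windows from RefSeq.

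The 4 genes and the lists were chosen with earlier results of these data known. Named genes were the 4, tested neighbours within 500 kb, genes whose exons overlap theirs, up to 3 genes per list with the smallest adjusted p, AKT1, AKT2, STK38L and CUL3, and the 5 genes most correlated with KCTD20, before and after subtracting group means. KCTD11, KCTD13, the genes beside KCTD20 in the order of p-values and the cell markers were named outside this rule, after their values were seen. Some genes that this rule names are not reported here.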

Additional observations from a re-analysis of the deposited data

How the results depend on the processing

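The direction of SRSF3 held in every alternative tried. That of KCTD20 held too, but KCTD20 was chosen for its rise in these same libraries, so this is no support for the rise. Without the mean trend in limma the log2 fold change of SRSF3 stayed at 0.59 with an adjusted p of 0.0739. Leaving out 1 library at a time gave SRSF3 values from 0.52 to 0.64, BTBD10 from -0.10 to 0.11 and STK38 from -0.21 to 0.0544, the last 2 changing sign around 0. FAR1 ranged from -0.12 to 0.0097 in these fits, MAPK13 from -0.16 to 0.28 and PPIL1 from -0.0364 to 0.19. When all libraries were set to the same total, AKT2 was at -0.0165, MAPK13 at -0.0048 and PPIL1 at -0.0631. The number of genes past the threshold, 688 (413 higher, 275 lower), was 103 (51 and 52) without the mean trend and 1613 (907 and 706) with DESeq2, and under the scaling to the same total it was 802 (279 and 523). edgeR called 643. Leaving out 1 library gave 81 to 994 genes (50 to 605 higher, 31 to 389 lower), fewest (81) when DMSO replicate 3 was missing and 100 when DMSO replicate 2 was. The 11 tested neighbours of KCTD20 include ETV7, which was tested only because its CA4 values are high. The number of these neighbours past the threshold, 3, was 1 to 3 in the fits without 1 library. In those fits 81 to 994 of all 13928 tested genes passed. The causes were not tested.

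The labels number the replicates of both groups 1 to 3. The deviations of same-numbered libraries from their group means correlated at 0.202, 0.159 and 0.059, and the last lay under 0.1, so the numbers were not taken as pairs. With the replicate number as a block, 2397 genes passed (1260 higher, 1137 lower). The block lowered the SE of STK38 from 0.15 to 0.07 and that of BTBD10 from 0.14 to 0.08, and neither gene passed the threshold. KCTD20 kept a log2 fold change of 2.09 and SRSF3 its call, and BRPF3, FRYL, KCTD13, SRSF7, TEAD1 and TRA2B passed the threshold in addition.

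At this depth, genes such as ETV7 in DMSO rest on 2 to 4 reads, and PXT1 and BTBD10P1 lie at or under 3 reads. With a minimum mean of 50, ETV7, SPON1, CPNE5 and BTBD8 were not tested, and DESeq2 gave ETV7 and SPON1 no adjusted p.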

Other observations

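After the mean of each group was subtracted from the log2 values, the genes that followed KCTD20 most closely over the 6 libraries were ANAPC11, DDX50, PSMA6, SFXN1 and SEC61A2, with Pearson's r between 0.989 and 0.995. These are values without a test, since the 6 points share their normalization and have few degrees of freedom, and 4 of the 11688 genes compared had an r over 0.99. ANAPC11, a subunit of the anaphase-promoting complex, had 794, 666 and 616 normalized counts in DMSO and 640, 709 and 653 in CA4. Its highest library was replicate 1 in DMSO and replicate 2 in CA4, as for KCTD20. PSMA6, a subunit of the proteasome, had 1778, 1562 and 1487 normalized counts in DMSO and 1551, 1662 and 1567 in CA4. MAPK14, in the neighbourhood of KCTD20, had an r of 0.959 on this measure, MTCH1 of 0.54, BRPF3 of -0.20, C6orf89 of -0.74, CDKN1A of 0.30, BTBD10 of 0.41, STK38 of 0.21, SRSF3 of -0.12 and STK38L of -0.25. MAPK14 itself had a log2 fold change of 0.11 between the groups (SE 0.09).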
